A study of Gallus gallus with 8 samples.

Results

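Wide peaks were the small fraction of CUT&Tag peaks in chicken (Gallus gallus) liver that spanned more than 500 bp. They numbered 581 of the 61609 peaks listed in 7 libraries, or 0.943%, and merged into 358 sites where they overlapped by at least 1 bp. They were chosen by their width alone, so widths are given as a description and are not tested. The libraries were high temperature 2, 3 and 4, from livers of birds under high temperature treatment, and normal temperature 1, 2, 3 and 4, from birds at normal temperature. High temperature 1, the eighth library, was left out because wide peaks made up 23.6% of its list, and served only as a check. The labels give no breed, age, sex, temperature in degrees or length of exposure. They do not say that each library is a separate bird, so p-values measure only the spread between these samples, which may be technical.

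CUT&Tag places the transposase Tn5, fused to protein A, on chromatin through an antibody, and sequences the fragments it cuts near the bound protein. The series concerns Nrf2, a transcription factor that turns on antioxidant and detoxification genes through short antioxidant response elements. Which antibody was used is not stated in the labels. A transcription factor bound at a short element usually gives a narrow peak, whereas broad peaks are typical of histone marks that run along a longer stretch of chromatin. Chickens carry a few large chromosomes and many microchromosomes, which are small, rich in genes and rich in GC. Coordinates are in galGal6, the build named in the submitters' processing notes, and are counted from 1. The genes and the DNA sequence at these sites were not analysed here.

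The lists held 7647 to 8253 peaks in the 3 high temperature libraries and 8262 to 10599 in the 4 normal ones. Their lowest scores ran from 80.02 to 120.01 at high and from 60.13 to 110.15 at normal temperature, so the lists were not bounded at a common score. The score is the authors' value for each peak, on a scale the labels do not describe, and it was used only as a rank within a library. The lists hold no read counts and the depth behind each peak is unknown. High temperature 1 and 3 shared 937 peaks of identical coordinates, of which 7 were wide.

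Wide peaks were few in every library, and no difference in their number between the temperatures was found beyond the spread between libraries. High temperature 2, 3 and 4 held 91, 77 and 94 wide peaks. Normal temperature 1, 2, 3 and 4 held 76, 33, 74 and 136. Normal temperature 2 held the fewest and normal temperature 4 the most, so the normal libraries spanned the whole range of the high ones. The mean was 87.3 ± 9.07 at high (SD, n = 3) and 79.8 ± 42.4 at normal temperature (SD, n = 4), a difference of 7.58 wide peaks (two-sided exact permutation p = 0.657, adjusted p = 0.657 over 3 measures).

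As a share of the list, wide peaks made up 1.19%, 0.933% and 1.21% in high temperature 2, 3 and 4. They made up 0.920%, 0.368%, 0.733% and 1.28% in normal temperature 1, 2, 3 and 4. The exact Clopper-Pearson 95% interval, which covers counting error only, was 0.253% to 0.516% in normal temperature 2 and 1.08% to 1.52% in normal temperature 4, so these replicates of a single group lay apart. The mean share was 1.11% ± 0.153 at high (SD, n = 3) and 0.826% ± 0.381 at normal temperature (SD, n = 4), with an exact permutation p of 0.314 and an adjusted p of 0.657. Wide peaks covered 113.5, 88.8 and 115.0 kb in high temperature 2, 3 and 4. They covered 86.5, 33.1, 86.4 and 131.1 kb in normal temperature 1, 2, 3 and 4. The mean was 105.7 ± 14.7 kb at high (SD, n = 3) and 84.3 ± 40.1 kb at normal temperature (SD, n = 4), with an exact permutation p of 0.486 and an adjusted p of 0.657. The mean wide peak measured 1153 to 1247 bp at high and 964 to 1168 bp at normal temperature. With 3 against 4 libraries the smallest possible p is 0.0286. Without normal temperature 2 the mean difference in number was -8.0, the opposite direction, and without normal temperature 4 it was 26.3. Without normal temperature 2 the differences in share and covered length were 0.131 percentage points and 4.39 kb, and without normal temperature 4 they were 0.436 points and 37.1 kb.

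Median widths of the wide peaks were 778, 870 and 858.5 bp in high temperature 2, 3 and 4, against 732.5, 708, 689 and 630 bp in normal temperature 1, 2, 3 and 4. The 3 high temperature medians were the highest of the 7, given here without a test because width chose the peaks. The longest peak of a list reached 5336 to 5465 bp at high and 4237 to 5672 bp at normal temperature. Just inside the threshold lay peaks of 501, 501 and 502 bp, all in normal temperature 4, at score percentiles of 43.9, 0.113 and 27.1. Just outside lay a peak of 500 bp and a peak of 499 bp in high temperature 4, at percentiles of 89.4 and 71.9, and a peak of 499 bp in normal temperature 4, at percentile 1.06. The score percentile is the rank of a peak in its own list, with 100 as the highest.

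Wide peaks recurred from library to library far more often than the rest of the list. Recurrence was counted when the central 200 bp of a peak overlapped a peak of any of the other 6 libraries. The wide peak was thus cut to the length of a narrow one, while the peaks of the other libraries kept their full length. In high temperature 2, 3 and 4, 52.7%, 63.6% and 50.0% of wide peaks recurred, against 2.86%, 3.19% and 3.24% of peaks of 500 bp or less. In normal temperature 1, 2, 3 and 4, 61.8%, 72.7%, 64.9% and 34.6% of wide peaks recurred, against 2.93%, 3.32%, 2.81% and 2.76% of the others. The lowest share of wide peaks, in normal temperature 4, was still far above the highest share of other peaks. The mean was 57.2% ± 12.6 for wide and 3.02% ± 0.229 for other peaks (SD, n = 7 libraries), a difference of 54.2 percentage points in the same direction in 7 of 7 libraries. The two-sided exact sign-flip permutation p was 0.0156, the smallest that 7 libraries allow, and 0.0156 after adjustment over 3 measures. With the peaks of the other libraries also cut to their central 200 bp, the difference was 47.2 points (exact permutation p = 0.0156). Each library is compared with the others, so the 7 differences are not fully independent.

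Pooled over the libraries, recurrence climbed with width on both sides of the threshold, although in normal temperature 2 it was 14.9% at 251 to 400 bp and 5.0% at 401 to 500 bp. Over the 7 libraries, 2.85% of the 52446 peaks of exactly 200 bp recurred and 4.90% of the 1612 peaks of 251 to 400 bp. The share was 12.0% of the 301 peaks of 401 to 500 bp and 36.3% of the 375 peaks of 501 to 1000 bp. It was 78.8% of the 132 peaks of 1001 to 2000 bp and 94.6% of the 74 peaks over 2000 bp. In normal temperature 4 the share was 21.6% at 501 to 1000 bp, the lowest of the 7 libraries, and in normal temperature 2 it was 60.9%, the highest.

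**Figure D1:**
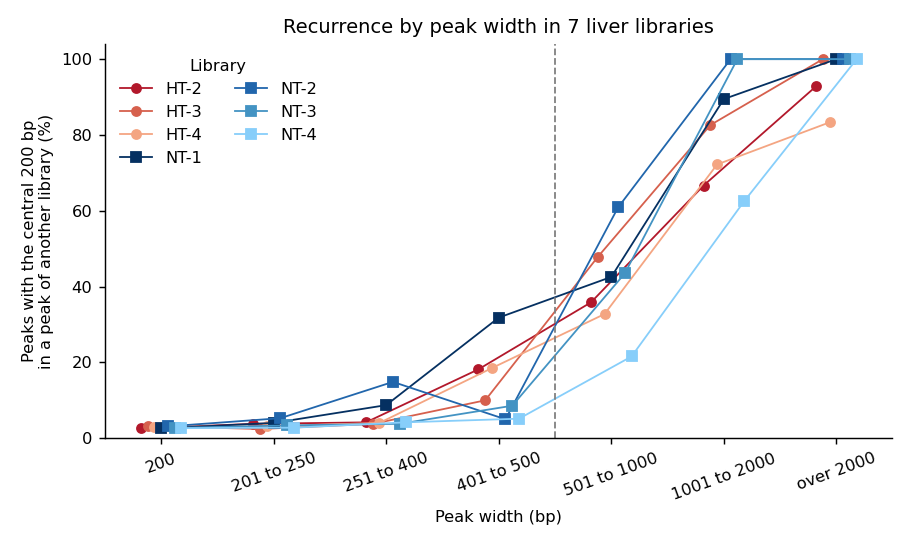
Share of peaks (%) whose central 200 bp overlapped a peak of another library, by peak width in bp, with 1 line for each of 3 high (HT, circles) and 4 normal temperature (NT, squares) libraries. The dashed line marks 500 bp, and the share is 2.58% to 3.25% in peaks of 200 bp and 83.3% to 100% above 2000 bp.

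Of the 358 sites, 285 (79.6%) held a wide peak in 1 library only, 22 in 2 libraries, 12 in 3, 12 in 4, 7 in 5, 9 in 6 and 11 in all 7. The 73 sites of at least 2 libraries carried 296 of the 581 wide peaks, or 50.9%. Sites of 1 library had a median width of 594 bp (interquartile range 540 to 728 bp), close to the threshold. Sites of 2 or 3 libraries had a median width of 1065.5 bp, those of 4 to 6 libraries 1523.5 bp and those of all 7 libraries 2352 bp. A site made of more peaks can only grow on merging, so these site widths are not independent of the number of libraries.

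The sites listed by high temperature 1 followed the same order, although that library took no part in choosing them. It listed a peak at 73 of the 73 sites of at least 2 libraries (exact Clopper-Pearson 95% interval 95.1% to 100%), and a wide one at 70 of them. It listed a peak at 71 of the 285 sites of 1 library, or 24.9% (interval 20.0% to 30.4%). Both intervals cover counting error only and take sites as independent, although 58.9% of recurrent sites had another wide site within 50 kb. Wide peaks had their central 200 bp in a peak of high temperature 1 in 61.5%, 89.6% and 52.1% of cases in high temperature 2, 3 and 4, against 0.635%, 18.3% and 0.780% of the other peaks. The shares were 64.5%, 72.7%, 60.8% and 41.9% in normal temperature 1, 2, 3 and 4, against 0.794%, 0.974%, 0.519% and 0.736% of the other peaks. High temperature 3 stood apart, as 24 of its 31 wide peaks at sites of its own lay in a peak of high temperature 1, the library with which it shares identical peaks. Of the 1784 wide peaks of high temperature 1, only 128 (7.17%) lay at any of the 358 sites. The list of high temperature 1 reached down to a score of 30.01, where the lowest minimum of the 7 libraries was 60.13. Only 31.5% of its peaks spanned 200 or 250 bp, against 88.9% to 98.0% in the 7 libraries. The check list is therefore unlike the others, and its longer peaks overlap a site more readily. Sites of at least 2 libraries were also wider, with a median of 1478 bp against 594 bp for sites of 1 library. Whole sites were used in the site counts, so the wider ones were easier to meet.

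Of the 73 sites with a wide peak in at least 2 libraries, 66 had one at both temperatures, 4 at high temperature only and 3 at normal temperature only. The design fixes part of this count, since the 27 sites wide in 5 or more libraries must be held at both temperatures. Of the 22 sites wide in 2 libraries, 16 (72.7%) were held at both, and of the 12 wide in 3 libraries, 11. Counting peaks of any width, regions held by exactly 2 libraries were held at both temperatures in 61.4% of the 44 regions with a wide peak, against 58.7% of the 867 regions without one, so wide sites were close to the background in this respect. Counting peaks of any width, 69 of the 73 were held at both, 1 at high and 3 at normal temperature only. Among all 358 sites, 84 held peaks of any width at both temperatures, 114 at high only and 160 at normal only, and most sites held at high or at normal temperature only were those of 1 library. Pairs of high temperature libraries shared 28 to 32 wide sites (3 pairs, median 28), pairs of normal libraries shared 18 to 33 (6 pairs, median 23) and pairs across temperatures shared 15 to 38 (12 pairs, median 29). The lowest counts belong to pairs with normal temperature 2, which held 33 wide peaks in all. As a share of the wide sites of the library with fewer, the medians stood in another order, at 36.4% within high temperature, 49.9% within normal temperature and 41.2% across temperatures. The ranges of the 3 kinds of pair overlapped by count and by share.

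**Figure D2:**
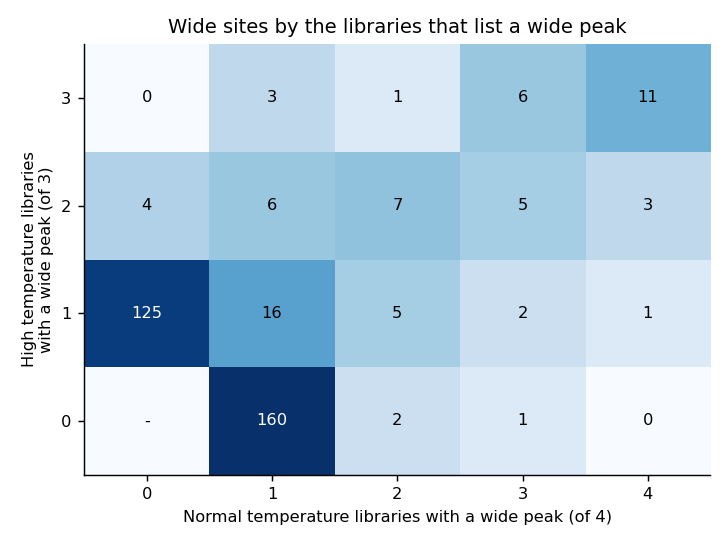
Number of wide sites by how many of 3 high (vertical) and 4 normal (horizontal) temperature libraries listed a wide peak there, with shade on a log10 scale. The cells with wide peaks at both temperatures hold 66 sites, 11 of them in all 7 libraries, and the 2 darkest cells hold the 125 and 160 sites of a single library.

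Sites held at 1 temperature by a fixed rule were few. The rule asked for a peak of any width in at least 2 of 3 high and 0 of 4 normal libraries, or in at least 3 of 4 normal and 0 of 3 high ones. It called 8 of 358 wide sites for high temperature, or 2.23%, where it called 0.162% of all 60417 merged regions of the 7 libraries. It called 1 wide site for normal temperature, or 0.279%, against 0.00497% of all regions. Both shares exceed the background, as does recurrence itself, since 28.5% of the merged regions with a wide peak but 1.48% of the others were held by at least 2 libraries. That contrast is partly built in, since a region of more libraries has more chances to include a wide peak. A longer region also meets peaks of other libraries more readily. The bar differed, at 2 libraries for high and 3 for normal temperature, so the called counts cannot be set against each other. Of the 44 regions with a wide peak held by exactly 2 libraries, 8 were at high and 9 at normal temperature only. Of the 867 such regions without a wide peak, 90 were at high and 268 at normal temperature only. After Benjamini-Hochberg adjustment over the 60417 regions, Fisher's exact test called 0 regions (0%), and 1 region (0.00166%) had an unadjusted p under 0.05. The smallest p that 3 against 4 libraries allow, 0.0286, is reached only by a region held by all libraries of 1 temperature and 0 of the other. The adjusted test could therefore call no region here, and its count of 0 says nothing about temperature.

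That region was the normal temperature site, on chromosome 31 from 209165 to 210060 (896 bp). Its widest peaks spanned 400, 638, 696 and 821 bp in normal temperature 1, 2, 3 and 4, and high temperature 2, 3 and 4 listed none. Its p in the two-sided Fisher's exact test was 0.0286, and 1.0 after adjustment. High temperature 1, outside the test, listed a peak of 1880 bp there, so the site was not free of peaks in every high temperature library. Without high temperature 2 the rule called 3 sites for normal temperature, and without high temperature 4 it called 2. A neighbour from 199302 to 200284 on chromosome 31 had wide peaks in high temperature 3 and 4 and normal temperature 4.

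None of the 8 high temperature sites was held by all 3 high temperature libraries. Those on chromosome 1 from 72595257 to 72595843 and from 154244081 to 154244792, and on chromosome 25 from 3087956 to 3089519, were held by libraries 2 and 4. Those on chromosome 8 from 1153160 to 1154162, on chromosome 11 from 19987110 to 19987640, on chromosome 26 from 5532099 to 5533020 and on chromosome Z from 56112459 to 56113572 were held by libraries 3 and 4. Of these, 2 were joined only at an edge. On chromosome Z the peak of high temperature 3, from 56112235 to 56112484, met only the start of the site. On chromosome 26 the peak of high temperature 4, from 5532941 to 5533140, met only its end. The site on chromosome 26 from 5444870 to 5445714 was held by libraries 2 and 3. Only the site on chromosome 8 had a wide peak in 2 libraries, of 870 bp in high temperature 3 and 1003 bp in high temperature 4. The other 7 paired a wide peak with a narrower one, as on chromosome 26 from 5444870, with 845 bp in high temperature 2 and 200 bp in high temperature 3. High temperature 1 listed a peak at each of the 8 except that one, and the peak of 250 bp that high temperature 3 listed on chromosome Z had the same coordinates in high temperature 1. Scores were mixed, with the mean percentile of the wide peaks between 9.13, on chromosome Z, and 58.7, on chromosome 1 from 154244081. The number of such sites was 4, 3 and 1 without high temperature 2, 3 and 4, and 13 without normal temperature 4. With a high temperature library left out, the rule asked for both of those that remained. The counts of 4, 3 and 1 thus follow from the pairs of libraries named above.

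The 11 sites with a wide peak in all 7 libraries were constant in presence by this choice, while their widths and score ranks varied between libraries. They lay on chromosomes 1, 3, 4, 9, 22 and 27 with 1 site each, and on chromosome 14 with 5. The width of the widest peak at a site overlapped between the temperatures at each of the 11, and 0 of the 14 merged regions held by all 7 libraries (0%) had widths apart. At 7 of the 11 sites normal temperature 2 listed the narrowest of the 7 peaks. The ratio of the widest to the narrowest peak at a site ran from 1.02 to 3.11, with a median of 1.89.

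The site on chromosome 27 from 293553 to 297836 (4284 bp) had the steadiest extent. Its peak spanned 4267, 4213 and 4201 bp in high temperature 2, 3 and 4, against 4272, 4237, 4267 and 4249 bp in normal temperature 1, 2, 3 and 4. All 7 starts lay within 41 bp and all 7 ends within 60 bp, and high temperature 1 listed 4279 bp. The peak ranked 2, 19 and 5 by score in high temperature 2, 3 and 4, against 4, 354, 3 and 10 in normal temperature 1, 2, 3 and 4. Its rank thus varied most in normal temperature 2, while its extent did not.

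A similar stretch on chromosome 3, from 105175776 to 105181141 (5366 bp), showed how a list can break a site. High temperature 2, 3 and 4 listed single peaks of 5366, 5336 and 5330 bp. Normal temperature 3 and 4 listed 5343 and 5342 bp, normal temperature 1 listed 2 peaks of which the longer spanned 3503 bp, and normal temperature 2 listed none. High temperature 1 also listed 2 peaks, the longer of 3618 bp. The starts lay within 67 bp in the 6 libraries that held it.

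The site on chromosome 22 from 112320 to 117999 (5680 bp) was the widest of the 358. It spanned 5358, 4172 and 5465 bp in high temperature 2, 3 and 4, against 5243, 2404, 5672 and 4190 bp in normal temperature 1, 2, 3 and 4. The ends lay within 132 bp while the starts ranged over 3150 bp, so the libraries differed at the start side only. Of the 5 widest sites, the others were those on chromosomes 27, 14 (from 409234) and 3 (from 105175776) and a site of 4570 bp on an unplaced scaffold with a wide peak in high temperature 2 only, where high temperature 1 also listed a peak.

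Chromosome 14 carried 7 of the 73 recurrent sites within its first 500 kb, and 5 of these were wide in all 7 libraries. The site from 129956 to 131779 spanned 1276, 1816 and 1219 bp in high temperature 2, 3 and 4, against 1186, 1076, 1267 and 1202 bp in normal temperature 1, 2, 3 and 4. It held the highest score of the list in high temperature 2 and 3 and in normal temperature 4. The site from 172566 to 173236 was the narrowest of the 11, at 654, 614 and 625 bp in high temperature 2, 3 and 4 and 596, 553, 671 and 659 bp in normal temperature 1, 2, 3 and 4.

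The site from 409234 to 413259 on chromosome 14 spanned 3308, 2927 and 3123 bp in high temperature 2, 3 and 4, against 2922, 1638, 3774 and 3989 bp in normal temperature 1, 2, 3 and 4. Those from 348582 to 350933 and from 357809 to 359286 spanned 731 to 2274 bp and 708 to 1478 bp over the 7 libraries. Both were lowest in normal temperature 2. The site from 348582 had the highest ratio of widest to narrowest peak among the 11, with a core common to all 7 libraries of 731 bp in 2352 bp. Sites of 2 libraries lay between them, from 182219 to 185118 and from 363196 to 364072.

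On chromosome 9 the site from 5462139 to 5463515 spanned 1025, 972 and 1377 bp in high temperature 2, 3 and 4, against 1028, 977, 1015 and 974 bp in normal temperature 1, 2, 3 and 4. Its starts lay within 43 bp. It was the highest-scoring peak of normal temperature 1 and 3. A second site began 8 bp past its end, from 5463524 to 5464219. That one had wide peaks of 567 and 696 bp in high temperature 2 and 3 and of 589 and 569 bp in normal temperature 1 and 3, and narrower ones of 325 bp in high temperature 4 and 292 and 287 bp in normal temperature 2 and 4. All 7 libraries listed a peak at this second site among their 11 highest scores, so the threshold of 500 bp divided peaks of like rank.

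On chromosomes 1, 3 and 4, as on chromosome 9, the sites of all 7 libraries lay more than 500 kb from a chromosome end. On chromosome 1 from 88467815 to 88470195 the peak spanned 2362, 2213 and 2198 bp in high temperature 2, 3 and 4, against 2334, 1248, 2187 and 2296 bp in normal temperature 1, 2, 3 and 4. On chromosome 3 from 2473981 to 2476460 it spanned 1337, 2435 and 2366 bp in high temperature 2, 3 and 4, against 2249, 2360, 2390 and 2360 bp in normal temperature 1, 2, 3 and 4. On chromosome 4 from 24917484 to 24919712 it spanned 1242, 1021 and 2165 bp in high temperature 2, 3 and 4, against 913, 971, 1075 and 1320 bp in normal temperature 1, 2, 3 and 4. At each of these 3 sites 1 library alone was far from the others, a different one each time.

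**Figure D3:**
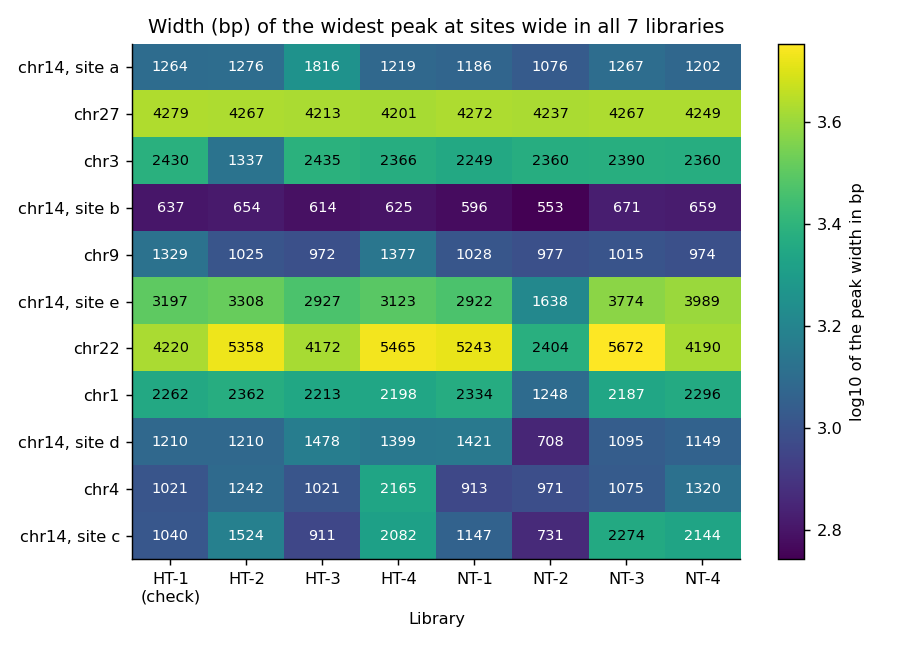
Width in bp of the widest peak at each of the 11 sites wide in all 7 libraries (rows, by mean score percentile, with chromosome 14 sites lettered by position), in high (HT) and normal temperature (NT) libraries. High temperature 1 is the check library and took no part in the choice. The row of chromosome 27 is nearly constant at 4201 to 4279 bp, and normal temperature 2 is the narrowest of the 7 in 7 rows.

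By score, wide peaks at sites of many libraries ranked above those at sites of 1 library by their medians, with wide overlap. The median percentile of wide peaks in their own list was 63.9, 72.7 and 62.8 in high temperature 2, 3 and 4, and 72.9, 26.7, 64.8 and 35.3 in normal temperature 1, 2, 3 and 4. Peaks of 500 bp or less had medians of 53.5, 46.4 and 47.0 in high temperature 2, 3 and 4. In normal temperature 1, 2, 3 and 4 their medians were 57.4, 52.1, 51.4 and 49.6. Wide peaks thus ranked lower than the others in normal temperature 2 and 4 and higher in the remaining libraries of the 7. In high temperature 1, the check library, they also ranked lower, with a median of 21.4 against 60.6 for its other peaks. These are descriptions, since width and score come from the same call. Wide peaks at sites of 4 or more libraries had medians of 96.0, 97.0 and 94.4 in high temperature 2, 3 and 4 and of 98.8, 81.4, 92.0 and 92.6 in normal temperature 1, 2, 3 and 4. Those at sites of 1 library had medians of 32.3, 34.5 and 55.0 in high temperature 2, 3 and 4 and of 21.6, 7.95, 50.9 and 25.8 in normal temperature 1, 2, 3 and 4. Sites of 2 or 3 libraries had medians of 42.7 to 72.5 over the 7 libraries. Single peaks overlapped widely, as a peak at a site of normal temperature 4 alone reached percentile 99.98, and a peak of normal temperature 2 at a site of 4 or more libraries lay at 0.0223. Normal temperature 4 held 90 of its 136 wide peaks at sites of its own, where the other libraries held 10 to 51. Normal temperature 2, with the lowest overall median, held 10 of its 33 at sites of its own.

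**Figure D4:**
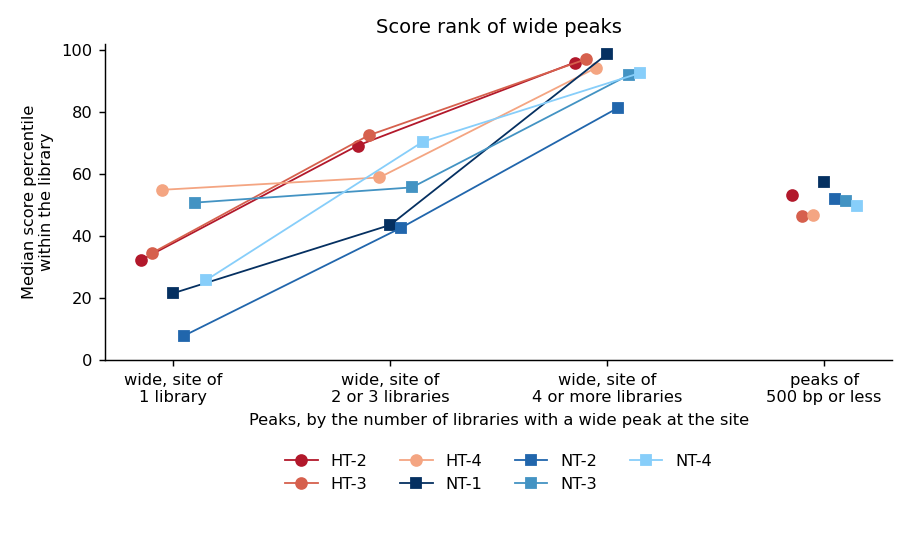
Median score percentile within the library (100 is the highest score) of wide peaks at sites of 1, of 2 or 3 and of 4 or more libraries, and of peaks of 500 bp or less, for 3 high (HT, circles) and 4 normal temperature (NT, squares) libraries. Medians at sites of 4 or more libraries lie between 81.4 and 98.8, above every median of the other 3 classes.

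A further comparison grouped peaks of any width by the width found in other libraries. Most of the peaks so grouped were wide in their own library too. These were 48 of 52, 46 of 50 and 43 of 49 in high temperature 2, 3 and 4. In normal temperature 1, 2, 3 and 4 they were 46 of 57, 23 of 35, 44 of 50 and 46 of 57. All the grouped peaks overlapped a peak of another library by choice, so the comparison does not separate score rank from width or recurrence. Peaks of any width that overlapped a wide peak of another library had a median percentile of 89.0, 94.1 and 76.5 in high temperature 2, 3 and 4, against 53.5, 46.4 and 47.0 for the other peaks of those libraries. The medians were 92.4, 78.1, 78.7 and 74.6 in normal temperature 1, 2, 3 and 4, against 57.4, 52.1, 51.4 and 49.6. The mean was 83.3 ± 8.18 at sites wide elsewhere and 51.0 ± 3.82 for other peaks (SD, n = 7 libraries), a difference of 32.3 percentile points, positive in 7 of 7 libraries (two-sided exact sign-flip permutation p = 0.0156, adjusted p = 0.0156). With high temperature 1 and its 1784 wide peaks included, the difference was 16.3 points (exact permutation p = 0.0156). The smallest p that 8 libraries allow is 0.00781, so the difference was not positive in all 8. Each library was grouped by the wide peaks of the others, so the 7 differences are not fully independent.

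No difference in score rank between the temperatures passed the test at the shared sites. Of the 11 sites, 7 had a percentile above 95 in at least 6 of the 7 libraries. Differences were tested over all 14 merged regions held by every one of the 7 libraries, each of which contained a wide peak, a set chosen with the values in view. Of these 14, 0 had an adjusted exact permutation p under 0.05 (0%) and 0 an unadjusted one, and the smallest p was 0.114. The smallest p that 3 against 4 libraries allow in this permutation test is 0.0286. A single region could therefore not pass after adjustment over 14, whatever its values. The largest differences rested on a few libraries. On chromosome 4 from 24917484 the percentile was 98.9, 98.9 and 91.1 in high temperature 2, 3 and 4, against 92.4, 8.15, 74.9 and 99.5 in normal temperature 1, 2, 3 and 4. On chromosome 14 from 357809 it was 22.8, 78.8 and 99.9 in high temperature 2, 3 and 4, against 92.5, 86.6, 99.2 and 98.2 in normal temperature 1, 2, 3 and 4. Both sets overlap between the temperatures.

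Wide peaks lay near chromosome ends more often than other peaks. On assembled autosomes, the midpoint lay within 500 kb of the nearer end in 33.3%, 37.7% and 26.9% of wide peaks in high temperature 2, 3 and 4, against 2.76%, 2.54% and 2.93% of other peaks. The shares were 30.2%, 35.5%, 35.6% and 21.7% in normal temperature 1, 2, 3 and 4, against 2.99%, 2.58%, 2.87% and 2.63% of other peaks. The mean was 31.6% ± 5.68 for wide and 2.76% ± 0.178 for other peaks (SD, n = 7 libraries), a difference of 28.8 percentage points, positive in 7 of 7 libraries (two-sided exact sign-flip permutation p = 0.0156, adjusted p = 0.0156). The 7 differences are not fully independent, since recurrent sites near an end were counted in each library that listed them. The far end of a chromosome was taken as the highest peak end in the 8 lists. The difference was 22.1 points without chromosome 14 and 30.3 points on autosomes longer than 5000 kb. Chromosome length was not matched, although 500 kb at each end is a larger part of a small chromosome. Wide peaks lay more often than other peaks on the smaller chromosomes, as given below.

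By site, 47.4% of the 57 autosomal sites of at least 2 libraries lay within 500 kb of an end, against 12.0% of the 251 autosomal sites of 1 library. These 27 recurrent terminal sites lay on 14 chromosomes, 18 at the start and 9 at the far end, with 7 on chromosome 14. Examples beside those on chromosomes 14, 22 and 27 are the sites on chromosome 4 from 17964 to 20546 and on chromosome 7 from 19839 to 22693, both with wide peaks in 5 libraries, and on chromosome 11 from 3702 to 5970, in 4. Neighbouring sites were common, as 58.9% of recurrent sites but 14.7% of sites of 1 library had another wide site within 50 kb.

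**Figure D5:**
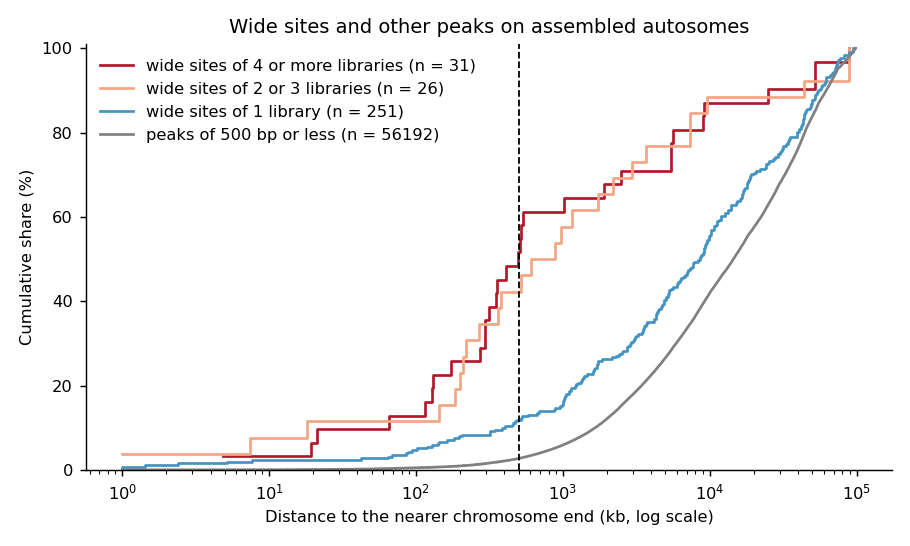
Cumulative share (%) of autosomal wide sites of 4 or more, of 2 or 3 and of 1 library, and of peaks of 500 bp or less, by distance in kb (log scale) of the midpoint to the nearer chromosome end, with distances under 1 kb drawn at 1 kb. At the dashed line of 500 kb the curves stand at 51.6%, 42.3%, 12.0% and near 3%, in the order above.

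Wide peaks were also distributed differently over the chromosomes. Chromosomes 1 to 10 held 36.8% to 54.4% of wide peaks in a library (median 42.4%), against 71.5% to 75.2% of other peaks (median 72.9%), and the share of wide peaks was lower in 7 of 7 libraries. Chromosomes 11 to 28 without 16 held 25.7% to 39.4% of wide peaks (median 34.0%), against 15.4% to 18.4% of other peaks. Chromosomes 16 and 30 to 33 held 5.32% to 12.1% (median 8.79%), against 1.12% to 1.57%, and scaffolds held 6.06% to 16.9% (median 13.2%), against 0.455% to 0.977%. The share of wide peaks was higher in 7 of 7 libraries in each of these 3 classes. Chromosomes Z and W held 0.0% to 5.41% of wide peaks (median 3.90%), against 5.06% to 8.18% of other peaks (median 7.61%), and 0 of the 73 recurrent sites lay on them. These shares were chosen after the data had been seen and are given without a test.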

How the data were processed

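CUT&Tag peak lists of 7 chicken liver libraries were analysed, with an eighth as a check. The submitters' processing notes name cutadapt 1.9.2, Bowtie2 2.2.4 and the build galGal6. For each library the authors deposited a list of 5 fields without a header, with peak names of the form MACS writes and a score of unknown scale; its caller version, thresholds and control are not given in the sources used here. Each list was treated as called on its own library.

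Peaks wider than 500 bp were merged at 1 bp overlap, and the code was tested on simulated data. Groups were compared by exact permutation over 35 assignments and wide with other peaks by exact sign flips over 128 patterns, each with Benjamini-Hochberg adjustment over 3 measures. Merged regions of all peaks were tested by Fisher's exact test. Libraries sharing a replicate number were not paired. Members, lists and the rule were chosen with earlier results of these data known.

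Named sites were up to 10 with wide peaks in the most libraries (by mean score percentile, with the 11th added because it tied in libraries), up to 10 held at each temperature only, the 5 widest, and 3 peaks on each side of 500 bp. Other sites named were chosen after their values were seen. The alternatives were other widths, peak subsets, overlaps, end distances and holding rules, high temperature 1 included, a replicate block and the omission of each library. Genes, motifs and sequences were not used here, since the available gene table is of a different assembly from galGal6. Calculations ran in Python 3.11.15 with numpy 2.4.6, scipy 1.17.1 and pandas 2.3.3, and plots in matplotlib 3.10.9.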

Additional observations from a re-analysis of the deposited data

Results flagged for a closer look

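High temperature 1, which entered no comparison, had wide peaks in 23.6% of its list (95% interval 22.7% to 24.6% by the exact Clopper-Pearson method), above the 0.368% to 1.28% of the 4 normal temperature libraries. Among 11 measures of the wide peaks at normal temperature, 0 had a library far enough from the other 3 to stand apart, where chance sets apart about 1 in 20 groups.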

How the results depend on the processing

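Recurrence, score rank at sites wide elsewhere and nearness to chromosome ends kept their direction and an adjusted p of at most 0.0312 under every alternative run, chromosome 14 left out and autosomes over 5000 kb (both added after seeing the data) included. In none of these does the score rank comparison separate rank from width or recurrence, and in all 3 measures the libraries share sites. With high temperature 1 included, nearness to ends differed by 25.8 points (exact permutation p = 0.00781, the smallest that 8 libraries allow). Recurrence differed by 51.5 points and score rank by 16.3 points, each with an exact permutation p of 0.0156. In these 2 measures the difference was therefore not positive in all 8 libraries. Over the omission of each library the differences ran from 51.3 to 56.4, from 31.3 to 34.3 and from 27.7 to 30.4 points. They grew to 83.6, 34.0 and 47.1 points with peaks over 1000 bp, and nearness within 250 kb differed by 16.8 points. The difference in number of wide peaks was -8.0 to 26.3 over the omissions, in share 0.131 to 0.436 points and in covered length 4.39 to 37.1 kb. With peaks over 1000 bp they were 9.75 peaks, 0.180 points and 20.5 kb. Their exact permutation p was 0.143, 0.0571 and 0.171, and 0.171 for each after adjustment. With high temperature 1 included the differences were 431.8 peaks, 5.91 points and 286.0 kb, and adjusted p ran from 0.100 to 1.0 over the alternatives. Omissions leave 2 against 4 or 3 against 3 libraries, whose smallest p is 0.0667 and 0.100, so they could not pass the threshold. Without normal temperature 4 the 3 measures were at 0.100, the smallest possible. Sites held at high temperature only numbered 3 over 1000 bp, 3 with the upper 50% by score, 4 where a wide peak was needed to hold a site, 0 if all libraries were asked for, and 1 to 13 over the omissions. They numbered 11 over 400 bp and 10 with high temperature 1 included. In that last setting its own wide peaks also made sites, and the rule asked for 3 of 4 high temperature libraries. Sites held at normal temperature only numbered 0 over 1000 bp, 0 with the upper 50% by score, 0 with high temperature 1 included, and 1 to 3 over the omissions. The cause of these changes was not tested. With the replicate number as a block the differences were 6.33 peaks, 0.315 points and 22.2 kb over 3 pairs (exact permutation p = 0.75, 0.5 and 0.75). Correlations of same-numbered libraries were -0.041, -0.075 and 0.044. Since few peaks recur between any libraries, these values cannot decide whether the numbers pair the samples. The unknown read depth limits all counts.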
